A study of Homo sapiens with 4 samples.

Results

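The regions described here are the wild-type-only H2AK119ub peaks: peaks of the wild-type list on chromosomes 1 to 22, narrower than 20 kb, that shared no base with any peak of the YTHDF1 knockdown list. They were chosen by measured values, namely the position and width of the called peaks in both lists. They numbered 9241, out of 31529 wild-type peaks under 20 kb on these chromosomes (29.3%) and 32798 peaks in the whole wild-type list. The study profiled H2AK119ub, histone H2A carrying a single ubiquitin on a lysine of its C-terminal tail, by chromatin immunoprecipitation and sequencing in H1, an established human embryonic stem cell line, kept in mTeSR1. One group was the YTHDF1 KD H1 line, given an shRNA against YTHDF1, and the other was untreated wild-type H1. Each group had 1 H2AK119ub library and 1 input library, and the inputs were not analysed here. Nothing in the labels says whether the knockdown line was a clone or a pool, and no control shRNA is named. A peak list holds no RNA level, so neither the knockdown nor the cell type could be checked. The absence of a knockdown peak is what chose these regions, so every difference between the libraries that follows is a description with no test and no replicate spread. Read depth is unknown, and a region counted here may have lain just under the calling threshold in the knockdown library. All positions are in hg38.

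Polycomb repressive complex 1 (PRC1) places ubiquitin on H2A through the RING-type ligases RING1 and RNF2. The mark is best known at CpG-rich promoters of silent developmental genes, where KDM2B can bring a variant form of the complex to unmethylated CpG, and it also occurs at lower levels across wide stretches of chromatin. YTHDF1 binds m6A, a methylated base of messenger RNA, and is known for promoting translation.

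Some of the promoters covered by wild-type-only peaks are shown first, because they span the whole range of CpG density found among them. Each runs from 250 bases before to 50 bases after the listed gene start in the RefSeq sequence of GRCh38.p14. The bases read 5′ to 3′ on the strand of the gene, and capitals mark every CpG. For 83.7% of promoters the listed start was an annotated end of the gene. TTC28 (minus strand of chr22:28679791-28680090) had the most CpG and PNPLA1 (plus strand of chr6:36242918-36243217) the fewest. METTL3 (minus strand of chr14:21511291-21511590) encodes the catalytic subunit of the m6A methyltransferase. SYCP1 (plus strand of chr1:114854613-114854912) encodes a component of the meiotic synaptonemal complex, and KCNA2 (minus strand of chr1:110631391-110631690) a voltage-gated potassium channel of neurons. The SYCP1 window lay wholly downstream of the annotated start of the gene, at 114854088.
TTC28: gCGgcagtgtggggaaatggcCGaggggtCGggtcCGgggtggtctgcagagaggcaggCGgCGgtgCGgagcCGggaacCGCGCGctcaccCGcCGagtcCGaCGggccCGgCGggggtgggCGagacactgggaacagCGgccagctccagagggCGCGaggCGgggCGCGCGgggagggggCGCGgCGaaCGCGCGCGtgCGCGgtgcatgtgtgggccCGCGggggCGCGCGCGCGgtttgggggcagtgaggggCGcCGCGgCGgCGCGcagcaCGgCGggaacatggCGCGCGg
METTL3: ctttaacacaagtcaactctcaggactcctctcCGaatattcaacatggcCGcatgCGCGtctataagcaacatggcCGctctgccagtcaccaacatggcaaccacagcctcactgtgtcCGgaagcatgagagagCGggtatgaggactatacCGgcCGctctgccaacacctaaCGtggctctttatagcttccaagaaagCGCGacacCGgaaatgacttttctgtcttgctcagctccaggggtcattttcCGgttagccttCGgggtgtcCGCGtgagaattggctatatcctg
SYCP1: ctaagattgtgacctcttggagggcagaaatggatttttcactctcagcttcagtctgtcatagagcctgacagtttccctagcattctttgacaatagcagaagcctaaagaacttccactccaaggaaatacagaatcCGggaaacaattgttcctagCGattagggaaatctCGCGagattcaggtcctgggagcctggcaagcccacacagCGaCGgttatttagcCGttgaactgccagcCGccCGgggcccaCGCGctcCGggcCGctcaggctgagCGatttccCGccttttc
KCNA2: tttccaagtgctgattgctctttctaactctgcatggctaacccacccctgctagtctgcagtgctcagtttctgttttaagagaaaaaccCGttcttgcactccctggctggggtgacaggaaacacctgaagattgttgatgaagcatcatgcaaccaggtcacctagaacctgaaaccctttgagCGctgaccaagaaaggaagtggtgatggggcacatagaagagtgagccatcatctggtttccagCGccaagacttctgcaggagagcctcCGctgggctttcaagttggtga
PNPLA1: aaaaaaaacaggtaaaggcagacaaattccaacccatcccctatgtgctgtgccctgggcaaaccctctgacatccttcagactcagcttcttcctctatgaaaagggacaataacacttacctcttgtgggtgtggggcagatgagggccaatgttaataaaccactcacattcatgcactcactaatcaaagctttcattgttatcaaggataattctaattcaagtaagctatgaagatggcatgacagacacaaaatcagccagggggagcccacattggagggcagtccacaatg

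These windows held 52 CpG at TTC28, 17 at METTL3, 15 at SYCP1, 4 at KCNA2 and 0 at PNPLA1. All lay wholly inside a wild-type-only peak. The peak over TTC28 was 3.2 kb wide with a score of 17.5, the authors' own value per peak, on a scale that the sources used here do not state. At METTL3 the peak measured 4.6 kb with a score of 14.7, at SYCP1 2.2 kb with 20.6, at KCNA2 1.4 kb with 17.9, and at PNPLA1 4 kb with 9.41. The nearest knockdown peak lay 50 kb from the TTC28 peak, 7.4 kb from that of METTL3, 181 kb from that of SYCP1, 9.4 kb from that of KCNA2 and 3.4 kb from that of PNPLA1. Wild-type-only peaks were thus found over CpG-rich and over CpG-free promoter sequence. TTC28 and PNPLA1 were picked as the extremes of CpG count, so these promoters show the range and not how often each kind occurred.

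The first question was what kind of peak had no counterpart in the knockdown. Wild-type-only peaks were narrow and low in score. Their median width was 3.4 kb, against 4.8 kb for the 22288 wild-type peaks under 20 kb that touched a knockdown peak, called shared below. Their median score was 8.42, against 22.6 for the shared peaks. Wild-type-only peaks covered 33.8 Mb, or 17.5% of the length of all wild-type peaks on these chromosomes, while shared peaks covered 129 Mb.

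The middle 50% of wild-type-only peaks measured 2.6 to 4.4 kb, and the narrowest was 0.6 kb. The widest, of 16.2 kb, lay in SH2B3, which encodes an adaptor that restrains cytokine signalling. Only 42 of them reached 10 kb, against 2688 shared peaks. By score, 1269 (13.7%) stood in the upper 50% of the wild-type list, against 62.4% of the shared peaks. The share of wild-type peaks that were unshared was 64.9% in the lowest decile by score, 35.5% in the fifth, 5.74% in the eighth and 0.127% (4 of 3153 peaks) in the highest. It was 45.5% among peaks under 2 kb and 0.728% among those of 12 to 20 kb. The mirrored class, knockdown peaks under 20 kb that touched no wild-type peak, numbered 8839 of 33498 (26.4%). These knockdown-only peaks had a median width of 2.8 kb and a median score of 7.84. In the lowest score decile of the knockdown list 62.2% of peaks were unshared, and in the highest 0 of 3350.

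**Figure D1:**
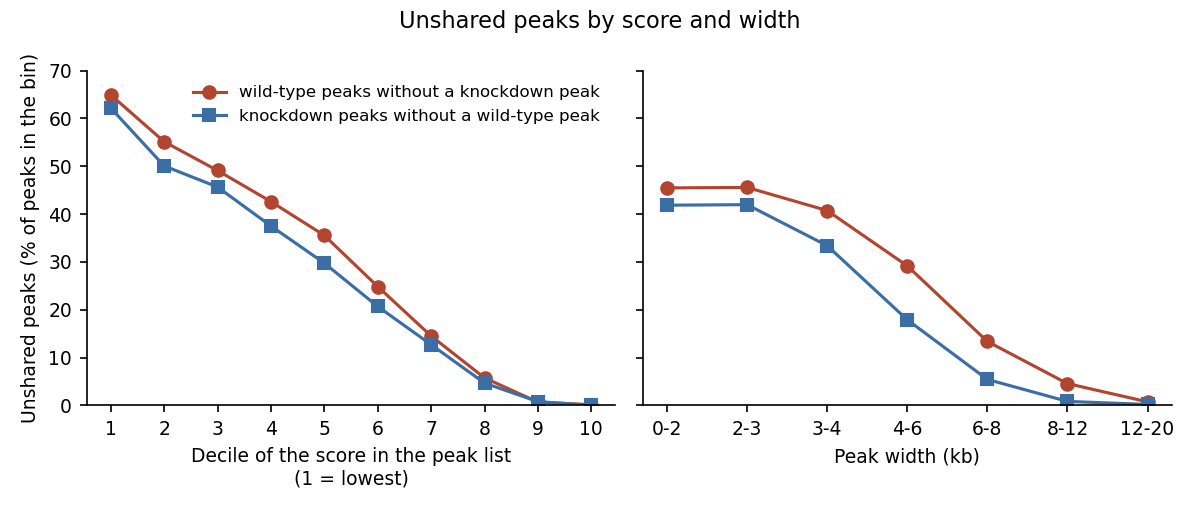
Share of unshared peaks (y axis, percent of the peaks in each bin) among peaks under 20 kb, by decile of the score within the peak's own list (left) and by peak width in kb (right). Circles are wild-type peaks without a knockdown peak and squares knockdown peaks without a wild-type peak; in both lists the share is above 60% in the lowest decile by score and below 1% in the 2 highest.

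The exceptions at the upper end of the score were few. The highest-scored wild-type-only peak, with 155.9, was 2.2 kb wide and lay over FOXD4L1, a forkhead gene with near-identical copies elsewhere in the genome, so that the assignment of reads to it is uncertain. Its nearest knockdown peak was 1.2 kb away. PRAME, which encodes a cancer-testis antigen, lay under a peak of 14.6 kb with a score of 84.4. MUC5B, which encodes a gel-forming mucin of the airways, had a peak of 13 kb with 72.5, at 26.4 kb from a knockdown peak. A peak of 13 kb with 61.8 covered the ends of GDF11, a TGF-beta family ligand, and of SARNP, but here a knockdown peak began 0.2 kb away. Other high-scored peaks at gene ends lay at SH2D7 and CIB2 (52.9), TAFA5 (52.4), MFNG (48.6), DRD5 (42.7), TDRD12 (41.5) and ASNS (41.4). MFNG encodes a glycosyltransferase acting on Notch receptors, DRD5 a dopamine receptor, TDRD12 a protein of the piRNA pathway, and ASNS asparagine synthetase. Away from gene ends, peaks inside NECTIN1 (66.9) and BRSK2 (64.4) were the highest that lay in a gene. A peak of 5.4 kb with a score of 111.0, between genes on chromosome 4 (4141001 to 4146400), was the second highest of all.

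At the edges of the definition, 155 wild-type-only peaks abutted a knockdown peak with no base between them, among them peaks at TNFRSF14, H6PD and IGSF21. On the other side, 175 peaks were counted as shared through an overlap of 200 bp, the step on which all peak edges lay. An example is a peak of 2.6 kb in CA6. The width limit removed 2 unshared wild-type peaks, of 20.8 kb in CDH4 and of 23.4 kb over RSPH14 and GNAZ.

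The next question was how far these regions lay from any knockdown peak. Most were not isolated. The median gap to the nearest knockdown peak was 8.6 kb, and 4989 (54.0%) lay within 10 kb of one. Within 2 kb there were 1826 (19.8%). Of these, 1277 lay beside a shared knockdown peak alone, 491 beside a knockdown-only peak alone and 58 beside both kinds. Peaks more than 100 kb from any knockdown peak numbered 622 (6.73%), and more than 1 Mb 12. For knockdown-only peaks the median gap to a wild-type peak was 10.6 kb, and 48.9% lay within 10 kb.

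The farthest wild-type-only peak, 5412 kb from a knockdown peak, lay on chromosome 22 (11591801 to 11594800) with a score of 3.14. The next was a peak of 5.4 kb with a score of 12.1 on chromosome 5 (27472801 to 27478200), whose nearest protein-coding gene was CDH9, a neuronal cadherin. PROS1, which encodes the anticoagulant protein S, had a peak of 2.6 kb with a score of 6.10 at 2838 kb from a knockdown peak. The 5 farthest also included a peak of 3.4 kb nearest to CDH10 (score 2.31) and a peak of 5 kb on chromosome 9 (64940201 to 64945200), which had the highest score of the 5 (30.8).

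Relative to genes, wild-type-only peaks lay mostly in gene bodies and between genes. Only 1566 (16.9%) came within 2 kb of an annotated end of a protein-coding gene, against 49.3% of shared peaks. Gene bodies away from the ends held 4219 (45.7%), against 25.5% of shared peaks, and 3456 (37.4%) lay outside protein-coding genes, against 25.3%. A wider peak reaches a gene end more easily, so shared peaks were also weighted to the widths and scores of the wild-type-only peaks. The weighted shares were 34.9% near gene ends, 31.5% in gene bodies and 33.6% outside. Knockdown-only peaks lay near gene ends in 15.7% of cases, in gene bodies in 42.0% and outside in 42.3%.

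The 2 kinds of gene end were told apart for the 15100 protein-coding genes whose start and strand are in the RefSeq promoter table, which left chromosome 8 out. A 5′ end lay within 2 kb of 642 of 8895 wild-type-only peaks (7.22%), of 36.3% of shared peaks (25.1% after weighting) and of 9.19% of knockdown-only peaks. A 3′ end without a 5′ end lay within 2 kb of 6.77% of wild-type-only, 6.41% of shared and 4.54% of knockdown-only peaks. The low share near gene ends thus came with a low share at 5′ ends. The count at 3′ ends leaves out peaks that also reach a 5′ end, and these are more frequent among shared peaks. It therefore does not show whether the classes differ at 3′ ends.

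**Figure D2:**
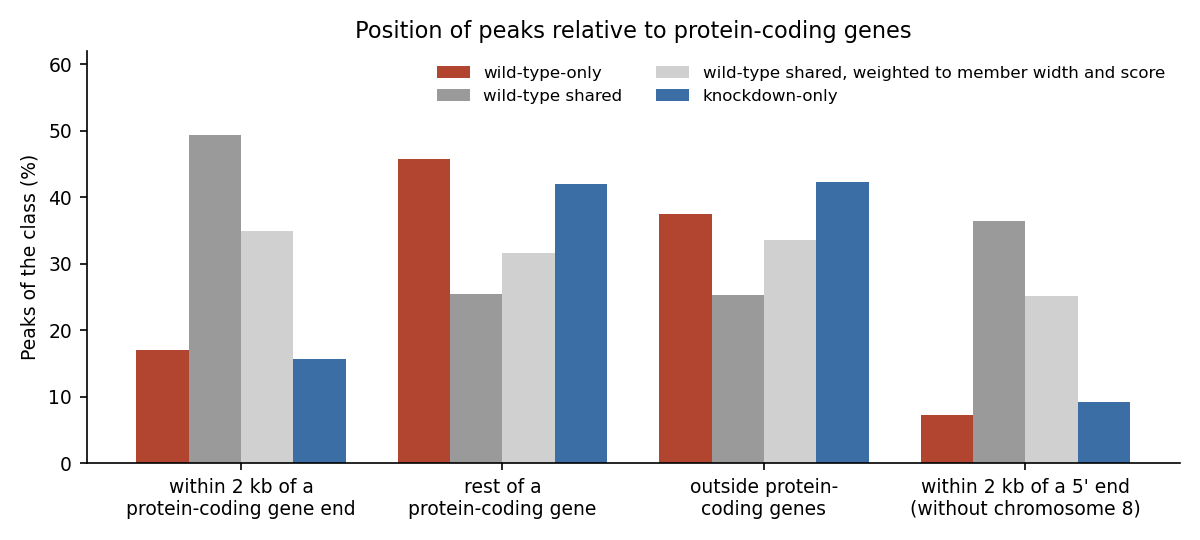
Percent of peaks of each class (y axis) within 2 kb of a protein-coding gene end, in the rest of a gene, outside genes, and within 2 kb of a 5′ end. From left to right, bars are wild-type-only, shared, shared weighted to the width and score of the wild-type-only peaks, and knockdown-only peaks; both unshared classes stand below 17% near gene ends, against 49.3% of shared peaks.

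Peaks in gene bodies lay mostly in genes that kept the mark at their start. For 3372 wild-type-only peaks in the body of a gene with a known start, 2718 (80.6%) lay in a gene whose start had a peak within 2 kb in both libraries. In 170 cases (5.04%) only the wild-type list marked the start, and in 380 (11.3%) neither list did. The corresponding share with a start marked in both was 84.2% for shared and 77.0% for knockdown-only peaks. The genes around these peaks were long, with a median over peaks of 135 kb, against 110 kb for shared and 144 kb for knockdown-only peaks. A gene with several peaks counts several times in these medians. The median distance from the gene start was 48.1 kb, against 34.5 kb for shared peaks. The peaks were spread over 1932 genes, of which 1236 held 1 peak and 12 held 10 or more, when each peak away from a gene end was given by its midpoint to the longest gene around it with a known start.

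The counts that follow take every wild-type-only peak that touched the gene, in all protein-coding genes, whether or not the strand was known. CDH4, which encodes R-cadherin, a cell adhesion molecule of the developing nervous system, held the most wild-type-only peaks, 28. Knockdown peaks covered 67.3 kb of its 688 kb and wild-type peaks 215 kb. SHANK2, a scaffold gene of the postsynaptic density, held 26, with 149 kb in knockdown peaks and 315 kb in wild-type peaks. In CDH4 the knockdown list had 19 peaks, of which 8 were knockdown-only, and the wild-type list 41. In SHANK2 the counts were 35 knockdown peaks, 6 of them knockdown-only, and 53 wild-type peaks. The unshared wild-type peaks of CDH4 were scattered over the whole gene, and those of SHANK2 stood mostly between and beyond shared peaks.

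**Figure D3:**
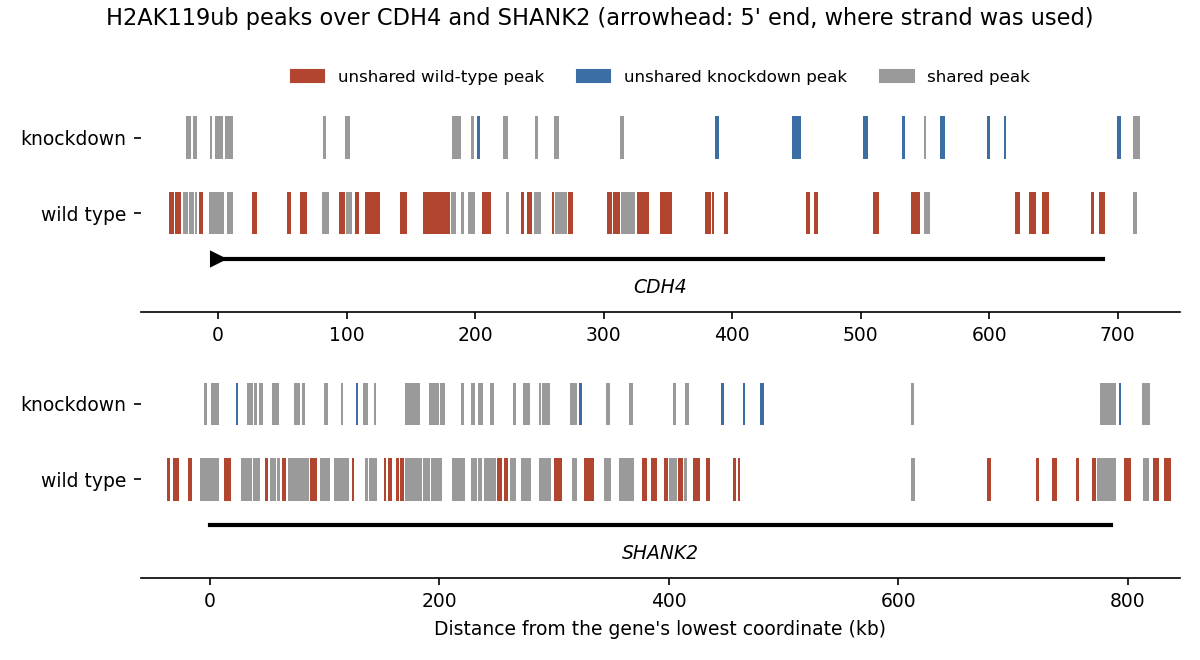
Peaks of the knockdown list (upper row of each panel) and wild-type list (lower row) over CDH4 and SHANK2, drawn to scale against the distance in kb from the lowest coordinate of the gene; the black line is the gene, and the arrowhead marks the 5′ end of CDH4 (the strand of SHANK2 was not used). Unshared peaks are coloured and shared peaks grey; the unshared wild-type peak of 20.8 kb in CDH4 is drawn too, although it is not among the 28 counted there.

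SYN3, a synapsin gene on chromosome 22, held 15, with 37.0 kb in knockdown peaks and 132 kb in wild-type peaks. One of these, of 14.4 kb and a score of 36.9, was among the widest. IGSF21, an immunoglobulin superfamily gene, held 14, with 102 kb in knockdown and 204 kb in wild-type peaks. CDH23, a cadherin of the hair cell tip link, also held 14, with 102 and 176 kb. IQSEC1, an exchange factor for ARF GTPases, held 15, with 117 kb in knockdown and 178 kb in wild-type peaks, and CAMTA1, a calmodulin-binding transcription activator, held 16, with 78.9 and 141 kb.

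CUX2, a homeobox gene of upper cortical layers, held 12 wild-type-only peaks, with 15.4 kb in knockdown peaks and 57.6 kb in wild-type peaks. SNTG2, a syntrophin gene, held 13, with 16.8 kb in knockdown and 62.4 kb in wild-type peaks. KAZN held 12, with 80.8 and 133 kb, and DLGAP2, a postsynaptic scaffold gene on chromosome 8, also 12, with 115 and 140 kb. TAFA5, which encodes a secreted protein of the brain, likewise held 12, none of its peaks being knockdown-only, with 17.4 kb in knockdown and 75.4 kb in wild-type peaks. These genes were picked for their counts of wild-type-only peaks, and a longer gene has more room for them. A lower knockdown coverage is therefore part of the choice.

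The arrangement along the chromosome was described by runs of consecutive wild-type peaks that were all wild-type-only. Of the 9241, 4204 (45.5%) had no wild-type-only peak as a direct neighbour, and 2503 (27.1%) belonged to runs of at least 3 in a row. For knockdown-only peaks these shares were 46.2% and 26.6%. Runs of 5 or more numbered 116 for wild-type-only and 73 for knockdown-only peaks, and the longest had 13 and 10 peaks. No test of this difference was made.

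The longest run, of 13 peaks on chromosome 20 (60036801 to 61169800), crossed 1133 kb without a knockdown peak and without a protein-coding gene. The second, of 12 peaks, covered CUX2 and PHETA1 on chromosome 12 (111095401 to 111361200), where 2 knockdown-only peaks of 5.8 kb in all lay between them. A run of 10 peaks in 149 kb on chromosome 22 (22865801 to 23014800) lay at the immunoglobulin lambda locus with IGLL5, had 52.8 kb in peaks and met no knockdown peak. Another of 10 lay at GSDMC and CYRIB on chromosome 8, with 4 knockdown-only peaks among its members. The runs of 9 with the most length in peaks lay in CDH4 on chromosome 20 (4 knockdown-only peaks between them), at ZSCAN20, CSMD2 and HMGB4 on chromosome 1 (4 such peaks) and at TAFA5 on chromosome 22 (none).

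In windows of 1 Mb, the median was 3 wild-type-only peaks where any lay, and the highest count was 35, at CDH4 and TAF4 on chromosome 20. On chromosome 22, the window with VPREB1, PRAME and IGLL5 held 33 wild-type-only peaks and 1 knockdown-only peak, and the window with TAFA5 31 and 3. Windows of chromosome 1 that hold PADI2 and IGSF21 had 33 and 31 wild-type-only peaks, beside 16 and 7 knockdown-only peaks. The window of chromosome 11 with MUC2, MUC5AC and MUC5B had 28 and 7.

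By chromosome, the unshared share of wild-type peaks was highest on chromosome 22, with 442 of 1212 peaks (36.5%), where 18.9% of knockdown peaks were unshared. The next were chromosomes 4 (32.6%) and 13 (32.4%). It was lowest on chromosomes 19 (25.1%) and 17 (25.2%). On chromosome 19 there were 539 wild-type-only and 328 knockdown-only peaks, and on chromosome 18, at the other end, 154 and 197. The median score of wild-type-only peaks was also highest on chromosome 22, at 11.1, followed by chromosome 19 at 9.75, and their median width of 3.4 kb was the same on chromosome 22 as over all chromosomes.

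**Figure D4:**
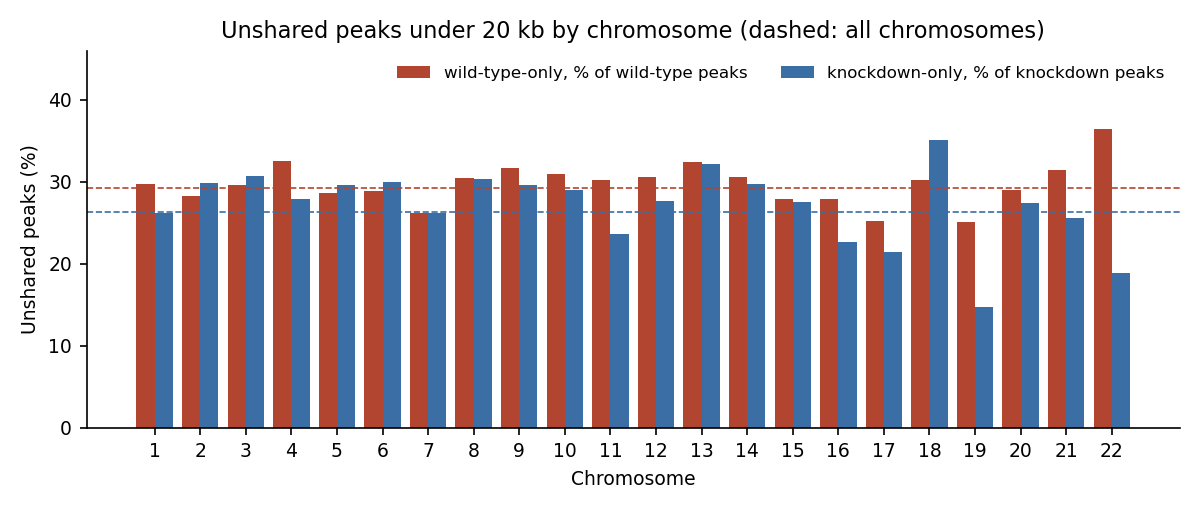
Unshared peaks on each chromosome as a percent of the peaks under 20 kb of their own list; left bars are wild-type-only peaks and right bars knockdown-only peaks, with dashed lines at 29.3% and 26.4% for all chromosomes. Chromosome 22 has the tallest wild-type-only bar (36.5%) and chromosome 18 the tallest knockdown-only bar (35.1%).

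The last questions were which genes carried the mark through wild-type-only peaks alone, and with what promoter sequence. A gene was counted when a wild-type-only peak and no knockdown peak lay within 2 kb of an annotated end. This held for 805 of 19122 protein-coding genes (4.21%), and the mirrored count for knockdown-only peaks was 877 (4.59%). A larger number, 1813 (9.48%), had a wild-type-only peak near an end, with or without a knockdown peak. Among the 805, the highest-scored peak lay at the 5′ end in 464, at the 3′ end in 107 and at both in 40. In 46 it lay at neither the listed start nor the 3′ end, and the strand was not used for 148. A counted peak need not touch the gene, and the same peak can count for several genes.

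The 4 lists of developmental genes held none of these genes. None of the 39 HOX genes, 55 neural transcription factor genes, 57 mesoderm and endoderm transcription factor genes and 80 genes of WNT, BMP, FGF, Hedgehog and Notch signalling was marked by wild-type-only peaks alone. In the same order, 39, 55, 56 and 75 of them had a peak within 2 kb of an end in the knockdown list, and 39, 55, 54 and 76 in the wild-type list. The shares over all protein-coding genes, 4.21% for wild-type-only and 4.59% for knockdown-only peaks alone, are the background for all lists. The count for wild-type-only peaks was also 0 for 26 PRC1 genes, 10 H2A deubiquitinase genes, 11 PRC2 genes and 39 housekeeping genes. These lists and each of the 4 developmental lists are so short that 0 is near this background, and no difference was tested. Knockdown-only peaks alone marked 1, 1, 1 and 3 of the PRC1, deubiquitinase, PRC2 and housekeeping genes, and 0, 0, 2 and 0 of the 4 developmental lists.

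Of 20 genes of the m6A machinery, 4 (a share of 20%) were marked by wild-type-only peaks alone, against 4.21% of all protein-coding genes, and 1 by knockdown-only peaks alone. Besides METTL3 these were CBLL1, a subunit of the methyltransferase complex, and the m6A readers YTHDC1 and YTHDC2. All the peaks lay at the 5′ end and scored low. CBLL1 had a peak of 2.8 kb with a score of 11.8, YTHDC2 of 3.6 kb with 9.70 and YTHDC1 of 4.4 kb with 4.38. The last 3 lay 78.4, 23.2 and 13.4 kb from a knockdown peak.

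Germline genes had the next highest share, with 4 of 33 (12.1%). These were SYCP1, TEX14 and TEX101, genes active in the testis, and PRM1, which encodes a sperm protamine. TEX14 had a peak of 2.2 kb with a score of 26.6 and TEX101 of 5.2 kb with 3.24. The TEX14 peak also lay at the 5′ end of RAD51C, so it cannot be assigned to TEX14 alone. The TEX101 peak lay at the 3′ end, and the PRM1 peak lay beside the gene and not over it. Of the 4, only the SYCP1 peak was placed at a 5′ end, since the strand of TEX14 and PRM1 was not used. The mirrored count found 1 germline gene. Of 60 DNA replication and repair genes, 5 (8.33%) were counted. The origin recognition genes ORC1, ORC2 and ORC6, the helicase gene MCM3 and the Fanconi anaemia gene FANCD2 made up the 5, with scores between 4.17 and 11.0. The mirrored count was 2. The ORC1 peak lay past the 3′ end of the gene, 0.6 kb from a knockdown peak. The ORC6 peak also lay at the 5′ end of VPS35.

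Against the backgrounds of 4.21% and 4.59%, several lists of genes active in every cell had higher shares, mainly for knockdown-only peaks, and no difference was tested. Of 31 proteasome genes, 3 (9.68%) were marked by wild-type-only peaks alone (PSMC5, PSMD12 and PSMB7, with scores between 2.78 and 6.15) and 8 (25.8%) by knockdown-only peaks alone. Of 46 spliceosome genes the counts were 3 (6.52%; SNRPB2, DHX16 and CDC5L) and 6 (13.0%). The 80 ribosomal protein genes gave 5 (6.25%, near the background) and 8 (a share of 10%), the 5 being RPL26L1, RPS27, RPL27, RPL14 and RPS23. Of 166 genes of mitochondrial ribosomes and oxidative phosphorylation 9 (5.42%, also near it) and 14 (8.43%) were counted. NDUFA10, a complex I gene, had the highest score among the 9, with 20.3 over 4 kb.

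The zinc finger genes of chromosome 19 had 21 of 250 (a share of 8.4%) marked by wild-type-only peaks alone and 27 (10.8%) by knockdown-only peaks alone, both above the shares of all genes. ZNF780B had the highest score, 36.8 over 6 kb at its 3′ end, and ZNF320 and ZNF468 shared a peak of 2.8 kb with a score of 21.4. Zinc finger genes of other chromosomes gave 15 of 255 (5.88%) and 21 (8.24%). ZNF214 and ZNF107 had the highest scores there, of 22.2 and 21.9. Clustered protocadherins gave 2 of 51 (3.92%, near the background; PCDHA7 and PCDHB14) and 4 (7.84%).

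Lists of tissue-specific genes lay on both sides of the background of 4.21%. Of 57 chemokine and chemokine receptor genes 4 (7.02%) were counted (CXCL6, CXCL9, CCL19 and CCL26), of 55 keratin genes 3 (5.45%; KRT80, KRT13 and KRT3), and of 391 olfactory receptor genes 3 (0.767%; OR13J1, OR51D1 and OR6S1). Few genes of these lists carried the mark in the wild type, 20, 13 and 12. Of those, 20%, 23.1% and 25% were marked by wild-type-only peaks alone, against 5.93% of all wild-type-marked protein-coding genes. These shares rest on 4, 3 and 3 genes. Of the chemokine genes, only CXCL6 was covered by its peak. The peaks of CXCL9, CCL19 and CCL26 lay beside the genes, and that of CXCL9 also lay at the 5′ end of ART3. Knockdown-only peaks alone marked 2 (3.51%), 1 (1.82%) and 5 (1.28%) genes of the 3 lists, against 4.59% of all protein-coding genes. The knockdown list marked 18, 11 and 14 of their genes, so the olfactory receptor count was higher in the mirrored class. Of 62 muscle, liver and blood genes 2 were counted, APOA2 and MYH7, and of 78 interleukin and receptor genes 2, IL12B and IL22RA1. Of 93 potassium channel genes the 2 were KCNA2 and KCNH7. The KCNH7 peak, of 5 kb with a score of 19.7, lay 760 kb from a knockdown peak. GABRR2 was the only one of 43 GABA and glutamate receptor genes, COL17A1 of 42 collagen genes and NDN of 24 imprinted genes. The NDN peak covered both ends of this short gene of the Prader-Willi region, with a width of 1.4 kb and a score of 29.1.

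Of 384 solute carrier genes 15 (3.91%) were counted, with SLC25A44 highest (score 20.1), followed by SLC10A7 and SLC28A2. SLC5A7, the choline transporter gene, had a peak of 3.6 kb at its 5′ end, 408 kb from a knockdown peak. Of 96 adhesion and orphan G protein-coupled receptor genes 2 were counted (GPR32 and GPR25) and of 226 TMEM genes 6, among them TMEM237 and TMEM67. Of the 30 pluripotency genes, GDF3 and DPPA4 were counted, with peaks of 5.6 kb each and scores of 13.6 and 10.4, and the mirrored count was also 2.

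Among other kinds of gene, 86 of 1793 miRNA genes (4.80%) had a wild-type-only peak and no knockdown peak within 2 kb, and 54 (3.01%) the reverse. For lncRNA genes the counts were 757 (4.25%) and 756 (4.25%) of 17795, and for pseudogenes 311 (2.17%) and 322 (2.25%) of 14324. Of the 98 immunoglobulin and T cell receptor J segments 5 (5.10%) and 0 were counted. Of the 248 V segments the counts were 9 (3.63%) and 3 (1.21%). The shares of protein-coding genes were 4.21% and 4.59%. The wild-type-only shares of both kinds of segment were near the first of these, the counts are small, and no difference was tested.

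Promoters marked by wild-type-only peaks alone had fewer CpG than those marked in both libraries. The 661 such promoters (4.38% of 15100) had a median of 21 CpG in 300 bases, with the middle 50% between 10 and 27. The 9623 promoters marked in both libraries had 28 (19 to 36), the 813 marked by knockdown-only peaks alone 21 (13 to 27), and the 3885 marked in neither 4 (2 to 14). Over all 15100 promoters the median was 22 (8 to 32), close to that of the 661. The median GC content of the 661 was 60.7%, against 67.0% for promoters marked in both and 63% for all. A narrower comparison gave a smaller gap. The 1227 promoters marked in both whose wild-type peaks lay in the middle 50% of the scores of wild-type-only peaks, with no higher one, had a median of 25 CpG.

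The share of wild-type-marked promoters that were marked by wild-type-only peaks alone was 16.6% with 0 to 4 CpG, 11.2% with 5 to 9, 7.34% with 10 to 14, 8.95% with 15 to 19, 8.81% with 20 to 24, 6.71% with 25 to 29 and 2.73% with 30 or more. PNPLA1, a lipase family gene of the skin, and KCNA2 fell in the first of these classes, and TTC28 was among 118 promoters of the last. The mirrored shares for the knockdown ran from 16.1% to 2.94% over the same classes, with 12.9% at 15 to 19 CpG.

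**Figure D5:**
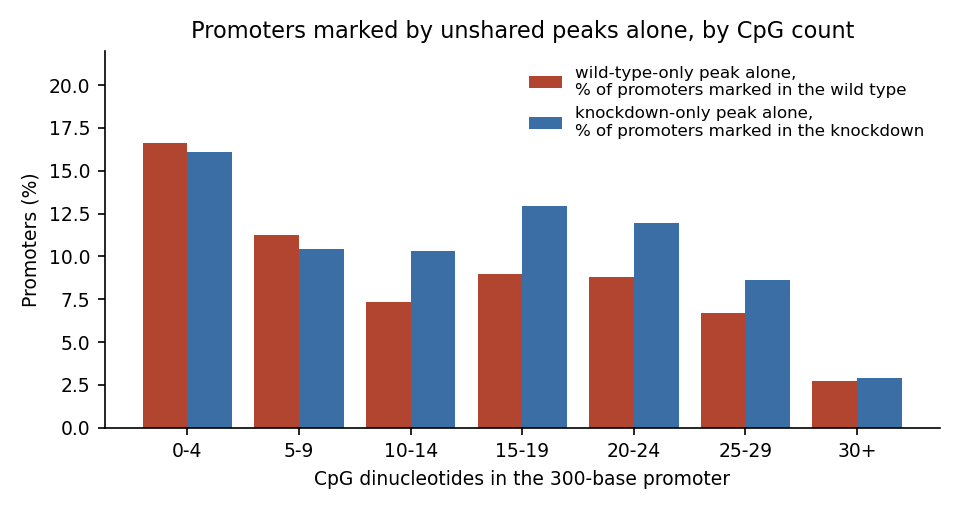
Promoters marked by unshared peaks alone (y axis) by the number of CpG in the 300-base promoter. Left bars give wild-type-only peaks as a percent of promoters marked in the wild type and right bars knockdown-only peaks as a percent of promoters marked in the knockdown; both are highest at 0 to 4 CpG (16.6% and 16.1%) and lowest at 30 or more.

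Short motifs were counted on both strands of the same 300 bases. The GC box GGGCGG, which itself holds a CpG, was present in 56.6% of the 661 promoters, 73.6% of those marked in both libraries and 58.9% of all 15100. CCAAT was present in 39.0%, 34.1% and 36.0%, and TATAAA in 5.75%, 5.57% and 9.71%. CACGTG and TGACGTCA, which read the same on both strands and hold a CpG, were present in 7.26% and 3.63% of the 661, in 10.6% and 2.90% of those marked in both, and in 8.77% and 2.65% of all. Of the promoters printed above, METTL3 held CCAAT and TATAAA, SYCP1 GGGCGG and PNPLA1 CCAAT, while TTC28 and KCNA2 held none of the 5 motifs.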

How the data were processed

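The data are the authors' deposited peak lists of 2 H2AK119ub libraries, 1 per group, taken from samples grouped by title. Each deposited peak has a start, an end and a score, and the sources used here do not state the scale of the score. Per the submitters' processing notes, the tools were SICER 1.1, MACS2 2.1.0, Picard, SAMtools 1.3.1, Bowtie2 2.2.5 and Trimmomatic 0.35, in an order not stated, and the build was hg38. Which of the peak callers SICER and MACS2 made these lists, and whether the input was used, is not stated. Peak edges are multiples of 200 bp and ends were read as inclusive. Scores were used only within their own list. Depth is unknown, and with 1 library per group no test was made. Binomial 95% intervals over peaks or promoters served only to judge the alternatives in the closing section, and do not cover the spread between libraries.

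Overlaps, gaps and runs were computed with Python 3.11.15, pandas 2.3.3 and NumPy 2.4.6, after the overlap routine was checked on simulated intervals. Genes, starts and promoter sequences came from RefSeq tables of GRCh38.p14, the assembly that shares hg38 coordinates; 19122 protein-coding genes lay on chromosomes 1 to 22, and 15100 had a promoter sequence. Weighting used 7 width and 8 score bins. Named peaks and genes are the highest-scored at gene ends, the widest, the farthest from the knockdown list and those at the edge of the definition, the longest runs, the genes with the most members, and up to 5 genes per list. Peaks in NECTIN1, BRSK2 and on chromosome 4 and some dense windows were chosen after their values were seen. Of 10 promoters picked by CpG count and peak score, 5 are printed. The regions and gene lists were chosen with earlier results of these data known. Alternatives changed the score limit, overlap rule, width limits, chromosomes and windows.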

Additional observations from a re-analysis of the deposited data

How the results depend on the processing

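Read depth is unknown and there is 1 library per group, so no spread between replicates is known, and the unshared status of a low-scored peak rests on a threshold. No paired analysis was possible because each group has 1 library. Of 44 recomputed values, 27 kept within the counting range of the value reported, or within 1.5 times for counts. With the upper 50% of both lists by score, 3922 peaks were unshared (25.6% of 15302), since the knockdown list is cut too, with a median width of 4.2 kb, a median score of 22.2, 34.4% near a gene end (62.1% for shared peaks) and a median of 26 CpG. With the upper 50% of the wild-type list set against the whole knockdown list, chosen after the data were seen, 1319 were unshared (8.62%), 21.5% lay near a gene end (58.2% for shared peaks) and 151 genes were marked by them alone. With no knockdown peak within 2 kb, the median score was 8.21. Counting peaks covered for less than 50% gave 3.8 kb, 9.75 and 22.5% near a gene end (52.6%). Peaks of at least 2 kb gave 3.6 kb, 8.66 and 19.3% (50.3%). Windows of 1 and 5 kb gave 14.4% (47.4%) and 24.9% (55.7%). Weighting the shared peaks to member width and score gave 34.9% for them. The share near gene ends was lower than that of shared peaks in each of these settings.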
